A study of Mus musculus with 12 samples.

Results

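The 9 genes described here encode hormones and other secreted proteins of fat tissue, called adipokines, and the receptors of some of them. They were taken by symbol from the deposited table of raw read counts, where they are 9 of 33352 genes. The secreted proteins are adiponectin (Adipoq), adipsin or complement factor D (Cfd), resistin (Retn), leptin (Lep), retinol binding protein 4 (Rbp4) and chemerin (Rarres2). The receptors are those of adiponectin (Adipor1 and Adipor2) and chemerin receptor 1 (Cmklr1).

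RNA was sequenced in 4 cell populations that had been sorted by flow cytometry from digested aorta with its perivascular fat, the adipose tissue around the vessel. The labels call them progenitor cells (Progenitor), intermediate cells (Intermediate) and the smooth muscle cell populations SMC1 and SMC2, and each had 3 libraries. All came from wild-type adult male mice of CD-1, an outbred strain, aged 13 weeks, and the labels name no treatment. How the sort was gated is not given in the sources used here, and the labels do not say whether a library held cells of a single animal.

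Adiponectin is made almost only by adipocytes, is assembled into multimers in the secretory pathway, and acts through 2 seven-pass membrane proteins linked to AMP-activated kinase and ceramide breakdown. Adipsin is the serine protease that starts the alternative complement pathway, and in mice it is one of the most abundant products of mature adipocytes. Leptin reports fat stores to the brain, and resistin is a secreted protein of mouse adipocytes. Chemerin is released as a precursor that proteases activate, and it attracts cells that carry its receptor. Retinol binding protein 4 carries vitamin A in blood and is made by liver and fat. Perivascular fat releases several of these proteins next to the vessel wall.

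Library totals ran from 13258631 to 22647175 counts. Levels are CPM (read counts scaled to library size), given with the SD over n = 3 libraries unless stated otherwise, and changes are log2 with their standard error. The test was the quasi-likelihood F test of edgeR. Its p-values were adjusted by Benjamini-Hochberg over the 19016 genes that passed a filter on low counts, and a gene is called higher or lower where the adjusted value is under 0.05. The 10 smooth muscle markers summed to 19965 to 37125 CPM in the SMC1 and SMC2 libraries against 277 to 674 in the other libraries, and the 10 fibroblast and progenitor markers to 71964 to 89366 CPM in Progenitor and Intermediate against 1004 to 7939. The summed 17 macrophage and leukocyte markers set SMC1 replicate 1 apart, at 810 CPM against 178 and 199.6 in the other SMC1 libraries. All marker lists had at least some counts for every marker in every group.

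All 9 genes passed the filter, so all 9 were tested. Retn reached the filter's level in its 3 SMC2 libraries and in no other library, so it had to differ from the other groups, and counts of called genes are given with and without it. Lep reached that level in 6 libraries, 3 of them outside SMC2.

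The starts of Adipoq, Cfd and Retn are shown because these genes were all highest in SMC2. Each line is the 250 bases before the gene's start in RefSeq's promoter table (GRCm38.p6), on the gene's strand and 5′ to 3′. The windows are chr16:23146286-23146535 (plus strand) for Adipoq, chr10:79890603-79890852 (plus strand) for Cfd and chr8:3655520-3655769 (plus strand) for Retn. Capitals mark the letters CCAAT or, on the other strand, ATTGG.
Adipoq: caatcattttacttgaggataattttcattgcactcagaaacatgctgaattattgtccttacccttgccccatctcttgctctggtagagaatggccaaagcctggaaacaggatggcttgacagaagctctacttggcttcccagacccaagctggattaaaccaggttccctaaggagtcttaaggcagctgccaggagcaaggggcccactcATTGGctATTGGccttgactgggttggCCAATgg
Cfd: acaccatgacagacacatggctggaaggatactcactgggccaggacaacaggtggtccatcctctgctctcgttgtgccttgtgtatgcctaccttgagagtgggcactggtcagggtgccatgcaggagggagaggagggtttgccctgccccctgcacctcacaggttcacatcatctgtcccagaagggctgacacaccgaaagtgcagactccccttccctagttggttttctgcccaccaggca
Retn: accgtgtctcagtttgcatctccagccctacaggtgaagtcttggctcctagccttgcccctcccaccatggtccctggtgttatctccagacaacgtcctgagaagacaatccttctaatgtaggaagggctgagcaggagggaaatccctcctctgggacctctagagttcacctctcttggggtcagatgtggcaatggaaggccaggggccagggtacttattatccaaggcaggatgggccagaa
On both strands, 6 motifs were searched: the TATA box (TATAAA), the nuclear receptor half-site (AGGTCA), the CCAAT box (CCAAT), the GC box (GGGCGG), the E-box (CACGTG) and the core of a C/EBP site (TTNNGCAA). Adipoq held CCAAT at 3 places, with first bases at -34, -27 and -7 from the start, and none of the other motifs. CCAAT in either orientation was in 33.8% of 32851 promoters of the same length. Cfd and Retn held none of the 6 motifs in this window, which says only that these letters are not in it. AGGTCA, the half-site of nuclear receptors such as PPARγ, was in 14.0% of all promoters and in none of the 10 windows of the 8 genes that had a promoter entry. TTNNGCAA was in 9.56% of all promoters, and among these genes in Lep at -55 and in 1 of the 2 windows of Rbp4 at -128. TATAAA was in 12.4% of all promoters, and the same Rbp4 window held it at -28. GGGCGG, found in 32.7%, was in Adipor1, Lep and Rbp4. CACGTG, found in 6.02%, was in Cmklr1 at -145.

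SMC2 stood apart from the other 3 populations in 3 secreted proteins of fat cells, but not in leptin. Adipoq and Cfd were each called higher in SMC2 than in SMC1, Progenitor and Intermediate, and Retn was higher there too, as its passing of the filter required. Rbp4 was called lower in SMC2 than in every other population, and the chemerin receptor Cmklr1 likewise. Against SMC1, 4 of the 9 genes were called higher in SMC2 and 3 lower, 7 in all, or 6 of 8 without Retn. Over all tested genes 16.5% were called higher and 18.1% lower in that comparison. The median log2 change was 0.10 over the 9 genes and -0.00 over all genes tested. Each population here is bulk RNA, so a larger share of cells that express a gene and more RNA per cell cannot be told apart.

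**Figure D1:**
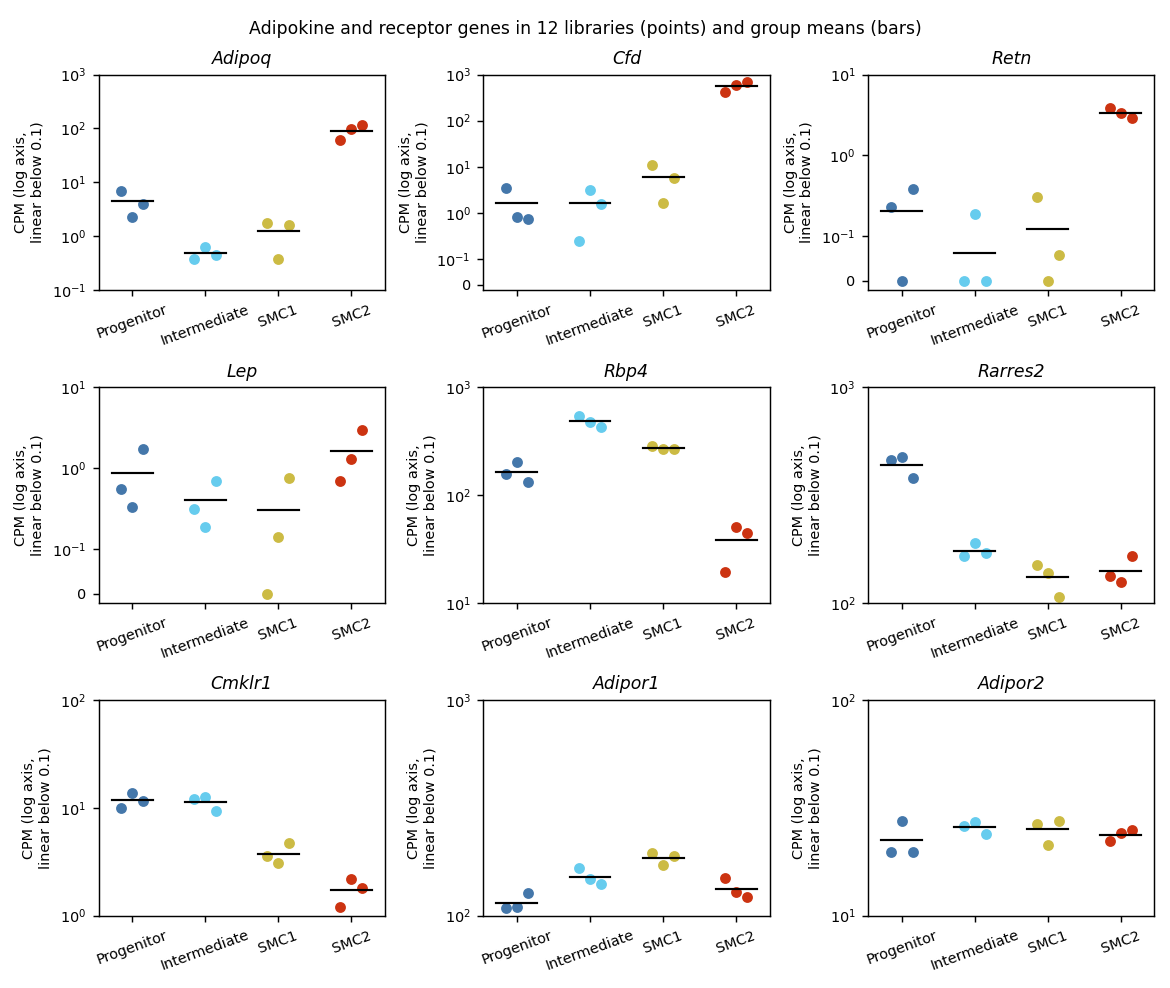
CPM of the 9 genes in each library (points, replicates 1 to 3 from left to right in each group) with the group mean (bar), on a log axis that is linear below 0.1 CPM. The 3 SMC2 libraries lie above all other libraries for Adipoq, Cfd and Retn, and below all others for Rbp4 and Cmklr1.

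Adipoq (chromosome 16, 23146536 to 23158028, plus strand, GRCm38) had 1297, 1962 and 1901 raw counts in the SMC2 libraries, or 59.7, 96.9 and 114 CPM. The Progenitor libraries had 153, 34 and 62 counts, or 6.97, 2.27 and 3.92 CPM. The SMC1 libraries had 34, 8 and 27 counts (1.73, 0.373 and 1.58 CPM) and the Intermediate libraries 6, 10 and 7 counts (0.373, 0.628 and 0.447 CPM). The SMC2 libraries were all above every other library, and the Progenitor libraries all above those of SMC1 and Intermediate. SMC2 exceeded SMC1 by 6.22 ± 0.46 log2 units (74.5-fold, adjusted p = 6.46e-08) and Progenitor by 4.33 ± 0.40 (20.1-fold, adjusted p = 3.09e-07). Progenitor in turn was above SMC1, which was 1.89 log2 units lower (change -1.89 ± 0.47, adjusted p = 0.00357), and above Intermediate (change -3.20 ± 0.56, adjusted p = 7.86e-04). SMC1 and Intermediate overlapped, and their difference of 1.31 ± 0.66 was not called (adjusted p = 0.129).

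Cfd (chromosome 10, 79890853 to 79892655, plus strand) was the most abundant of the 9 genes in SMC2, also per exonic length (618 CPM per kilobase). Its raw counts there were 9270, 11778 and 11666, or 426.6, 581.7 and 700.0 CPM. The SMC1 libraries had 215, 35 and 99 counts (10.9, 1.63 and 5.80 CPM), the Progenitor libraries 75, 12 and 12 (3.42, 0.800 and 0.758 CPM) and the Intermediate libraries 4, 51 and 24 (0.249, 3.20 and 1.53 CPM). SMC2 stood above every other library, and the other 3 populations overlapped each other. SMC2 exceeded SMC1 by 6.54 ± 0.86 log2 units (93.3-fold, adjusted p = 2.84e-04), Progenitor by 8.32 ± 0.95 (adjusted p = 6.87e-05) and Intermediate by 8.42 ± 0.97 (adjusted p = 6.81e-05). Among the other populations no difference was called (adjusted p = 0.119 for SMC1 against Progenitor, 0.124 for SMC1 against Intermediate and 0.960 for Intermediate against Progenitor). The highest Cfd value outside SMC2 was in SMC1 replicate 1, which also had the high leukocyte marker sum given above and 50.2 CPM of neutrophil markers against 4.29 and 6.38 in the other SMC1 libraries. The part of those cells in its Cfd level was not tested. Without that library the difference between SMC2 and SMC1 was 7.27, and without Progenitor replicate 1 that to Progenitor was 9.49. Without Intermediate replicate 2 the difference to Intermediate was 9.30.

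Retn (chromosome 8, 3655770 to 3660110, plus strand) was scarce everywhere. The SMC2 libraries had 84, 67 and 48 raw counts, or 3.87, 3.31 and 2.88 CPM. Progenitor had 5, 0 and 6 counts, Intermediate 0, 3 and 0, and SMC1 6, 0 and 1, where a count of 0 allows 0.140 to 0.200 CPM (3 counts of the library). Each SMC2 library was above every other library. From summed counts, the rate in SMC2 was 16.3 times that in Progenitor (95% exact interval 8.90 to 33.1, 199 against 11 counts) and 28.2 times that in SMC1 (13.4 to 71.0, 199 against 7). Against the 3 counts of Intermediate the ratio was 53.9, with an interval of 18.2 to 264. These intervals cover counting error only, not the spread between libraries. They are no test of a difference either, since Retn passed the filter through its SMC2 libraries alone. The fit over all genes gave log2 differences of SMC2 of 4.72 ± 0.81 to SMC1, 3.98 ± 0.77 to Progenitor and 5.59 ± 0.92 to Intermediate. No p is given, since the filter fixed that Retn would differ. The sizes turned on single libraries: against SMC1 the value was 6.65 without SMC1 replicate 1 and 4.09 without SMC1 replicate 2, against Progenitor 4.62 without Progenitor replicate 3, and against Intermediate 8.94 without Intermediate replicate 2.

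Lep (chromosome 6, 29060220 to 29073877, plus strand) was also scarce, and its populations overlapped. Raw counts were 15, 26 and 49 in SMC2, 12, 5 and 27 in Progenitor, 5, 3 and 11 in Intermediate, and 0, 3 and 13 in SMC1. In CPM the means were 1.64 ± 1.17, 0.862 ± 0.738, 0.401 ± 0.269 and 0.300 ± 0.405, in the same order. The highest SMC1 library, at 0.761 CPM, was above the lowest SMC2 library, at 0.690. The difference between SMC2 and SMC1 was called (2.47 ± 0.88, adjusted p = 0.0366). That call was lost on leaving out SMC1 replicate 1 (1.86, adjusted p = 0.0923), SMC1 replicate 2 (2.09, 0.124), SMC2 replicate 2 (2.59, 0.0541) or SMC2 replicate 3 (1.76, 0.168), and in a fit of the 6 libraries alone (adjusted p = 0.0656). Without SMC1 replicate 3 the value was 4.34 (adjusted p = 0.00270). SMC2 was not called against Progenitor (0.92 ± 0.79, adjusted p = 0.380) or Intermediate (2.0 ± 0.86, adjusted p = 0.0671). The value against Progenitor ran from 0.14 without SMC2 replicate 3 to 1.83 without Progenitor replicate 3, with no call. The difference to Intermediate was called in a fit that blocks on replicate number (adjusted p = 0.0111), without the low-count filter (0.00759), in the 6 libraries alone (0.0210) and with DESeq2 (0.0491). It was also called without SMC1 replicate 1 (adjusted p = 0.0278), SMC1 replicate 3 (0.0298) or SMC2 replicate 1 (0.0306). SMC1 was not called against Progenitor (-1.55 ± 0.90, adjusted p = 0.166). It was called lower with the block (-1.72, adjusted p = 0.0331), without the filter (-1.56, 0.0491) and without SMC1 replicate 3 (-3.50, 0.0109), and single libraries left out moved the value between -3.50 and -0.62.

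Adipocyte markers were also highest in SMC2. Their summed level over 25 genes was 4533 to 5274 CPM in SMC2, 1952 to 2999 in Progenitor, 915 to 1196 in SMC1 and 587 to 687 in Intermediate. The Progenitor sum was mostly Lpl, the lipoprotein lipase gene (1768 ± 482 CPM there and 18.6 ± 11.0 in SMC1). Without Lpl, a sum added after the data were seen, the ranges were 4016 to 4631 in SMC2, 905 to 1165 in SMC1, 625 to 889 in Progenitor and 429 to 492 in Intermediate, so SMC1 was then above Progenitor, unlike Adipoq. Against SMC1, 14 of the 25 were called higher in SMC2, 3 lower and 8 were not called, with a median log2 change of 1.56 against -0.00 over all genes. Over all tested genes 16.5% were called higher and 18.1% lower. Pparg, the master regulator of fat cell formation, had 366 ± 77.6 CPM in SMC2 and 8.17 ± 3.75 in SMC1, and the lipid droplet gene Plin1 had 61.2 ± 16.6 and 0.570 ± 0.308. Plin4 and Acsl1, named after their values were seen, went the other way. Plin4 had 49.2 ± 7.61 CPM in SMC2 and 193 ± 21.4 in SMC1, and Acsl1 had 110 ± 13.5 and 173 ± 18.7. Cebpa, another adipocyte regulator, was low, at 3.58 ± 0.195 CPM in SMC2, 1.02 ± 0.407 in SMC1 and 9.08 ± 3.75 in Progenitor. In SMC2 the smooth muscle markers stayed at 19965 to 28405 CPM in sum. The 7 Schwann cell markers summed to 97.5 to 196 CPM in SMC2 against 21.9 to 52.2 in the other libraries. The part of admixed adipocytes or of other cells in the SMC2 levels was not tested.

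Cfd and Adipoq did not keep a fixed ratio over the populations. Per library, the Cfd count divided by the Adipoq count was 7.15, 6.0 and 6.14 in SMC2 and 6.32, 4.38 and 3.67 in SMC1. In Progenitor it was 0.490, 0.353 and 0.194, and in Intermediate 0.667, 5.10 and 3.43, from as few as 4 Cfd and 6 Adipoq counts. In the Progenitor libraries Adipoq thus had more counts than Cfd, and in SMC1 and SMC2 Cfd had more. The log2 ratio was lower in Progenitor than in SMC2 by a difference of -4.31 without overlap, at an exact two-sided permutation p of 0.1, which is the smallest that 3 libraries against 3 allow. SMC1 and SMC2 overlapped (exact permutation p = 0.3). This ratio and the ratio of the adiponectin receptors to each other were chosen after the values were seen.

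**Figure D2:**
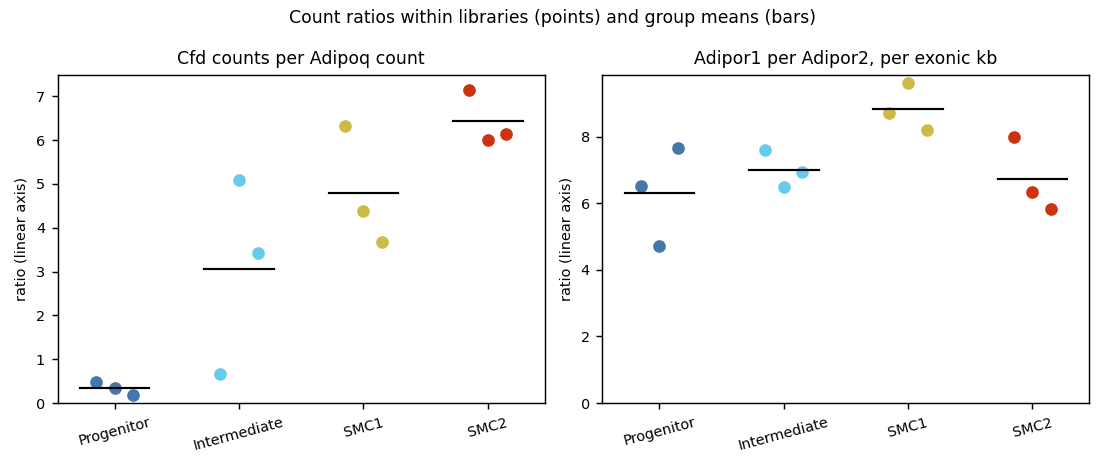
Ratios within each library (points, replicates 1 to 3 from left to right) with the group mean (bar), on linear axes from 0. The left panel divides Cfd counts by Adipoq counts, with all 3 Progenitor libraries below 0.5, and the right panel divides Adipor1 by Adipor2 per exonic kilobase, with means between 6.29 and 8.84.

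The adiponectin receptors varied less between populations than their ligand. Adipor1 (chromosome 1, 134415378 to 134433351, plus strand), whose product is linked mainly to AMP-activated kinase, had 108, 109 and 127 CPM in Progenitor and 166, 148 and 140.0 in Intermediate. It had 195, 171 and 190.0 CPM in SMC1 and 149.9, 129 and 122 in SMC2. Every SMC1 library was above all others, and the range from lowest to highest group mean was 115 to 185 CPM. SMC1 was called above Progenitor (0.69 ± 0.15, adjusted p = 9.35e-04), and SMC2 was called below SMC1 (-0.47 ± 0.15, adjusted p = 0.0220). The latter call was lost on leaving out SMC1 replicate 1 (adjusted p = 0.0867), SMC1 replicate 3 (0.0655), SMC2 replicate 2 (0.0891) or SMC2 replicate 3 (0.0806). Neighbours in the order SMC1, Intermediate, SMC2, Progenitor did not differ at the threshold, with adjusted p = 0.139, 0.366 and 0.268.

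Adipor2 (chromosome 6, 119353150 to 119417704, minus strand), whose product is linked mainly to PPARα, was not called in any of the 6 comparisons. Its libraries ran from 19.7 to 27.6 CPM, with group means of 23.8 ± 1.35 in SMC2, 25.1 ± 3.46 in SMC1, 25.7 ± 1.58 in Intermediate and 22.4 ± 4.54 in Progenitor. The change between SMC2 and SMC1 was -0.08 ± 0.17 (adjusted p = 0.752), and that between Intermediate and Progenitor 0.20 ± 0.17 (adjusted p = 0.423). Per exonic kilobase, Adipor1 was 8.84 ± 0.720 times Adipor2 in SMC1, 7.01 ± 0.550 in Intermediate, 6.73 ± 1.13 in SMC2 and 6.29 ± 1.49 in Progenitor. The SMC1 ratios overlapped those of no other group (exact permutation p = 0.1 in each comparison, the smallest possible).

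Chemerin was highest in Progenitor, and its receptor in Progenitor and Intermediate. Rarres2 (chromosome 6, 48569696 to 48572789, minus strand) had 459, 473 and 380.1 CPM in Progenitor, and 164, 189 and 171 in Intermediate. It had 150.0, 138 and 106 CPM in SMC1 and 133, 125 and 164 in SMC2. All Progenitor libraries were above every other library, while the other 3 populations lay within 106 to 189 CPM. Intermediate was 1.32 ± 0.18 log2 units below Progenitor (change -1.32, adjusted p = 1.68e-05), SMC2 changed by -1.63 ± 0.18 (adjusted p = 1.67e-07) and SMC1 by -1.73 ± 0.18 (adjusted p = 7.52e-08). SMC1, SMC2 and Intermediate did not differ at the threshold (adjusted p from 0.0664 to 0.689), although SMC1 was called below Intermediate in a fit of those 6 libraries alone (-0.43, adjusted p = 0.0311). Of the exon bases of Rarres2, 33.6% overlap Lrrc61 on the opposite strand. The libraries do not mark strand, so reads of the shared bases cannot be told apart and the Rarres2 level is uncertain.

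Cmklr1 (chromosome 5, 113612354 to 113650426, minus strand) encodes the G protein-coupled receptor through which chemerin attracts macrophages and other cells. It had 218, 207 and 184 raw counts in Progenitor, 194, 201 and 147 in Intermediate, 70, 66 and 80 in SMC1, and 26, 44 and 30 in SMC2. The group means were 11.8 ± 1.94, 11.4 ± 1.73, 3.78 ± 0.825 and 1.72 ± 0.493 CPM in that order. Progenitor and Intermediate overlapped (change -0.05 ± 0.24, adjusted p = 0.905), and both were above SMC1, which was above SMC2 in every library. SMC1 changed by -1.59 ± 0.25 against Intermediate (adjusted p = 2.60e-05), and SMC2 by -1.13 ± 0.27 against SMC1 (adjusted p = 0.00269). Of this ligand and receptor, Rarres2 was called between Progenitor and Intermediate and Cmklr1 was not. In SMC1 replicate 1, which had the most leukocyte markers, Cmklr1 was 3.56 CPM, between the other SMC1 libraries at 3.08 and 4.69.

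Rbp4 (chromosome 19, 38116629 to 38125281, minus strand) ran opposite to Adipoq. Its levels were 546, 481 and 424 CPM in Intermediate, 284, 267 and 269.7 in SMC1, 157, 204 and 133 in Progenitor, and 19.5, 50.03 and 44.8 in SMC2. No 2 populations overlapped. All 3 steps of this order were called: SMC1 changed by -0.82 ± 0.25 against Intermediate (adjusted p = 0.0129), SMC1 by 0.73 ± 0.25 against Progenitor (adjusted p = 0.0220), and SMC2 by -2.11 ± 0.26 against Progenitor (adjusted p = 1.56e-06). The step between SMC1 and Progenitor was the smallest. It was not called with upper-quartile scaling (0.54, adjusted p = 0.116) or without Progenitor replicate 1 (0.0568), Progenitor replicate 3 (0.0866), SMC1 replicate 1 (0.0777), SMC1 replicate 2 (0.0543) or SMC1 replicate 3 (0.0649). Intermediate exceeded Progenitor by 1.55 ± 0.26 (2.94-fold, adjusted p = 2.00e-04), and SMC2 lay 2.84 log2 units under SMC1 (change -2.84 ± 0.27, adjusted p = 1.06e-07).

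**Figure D3:**
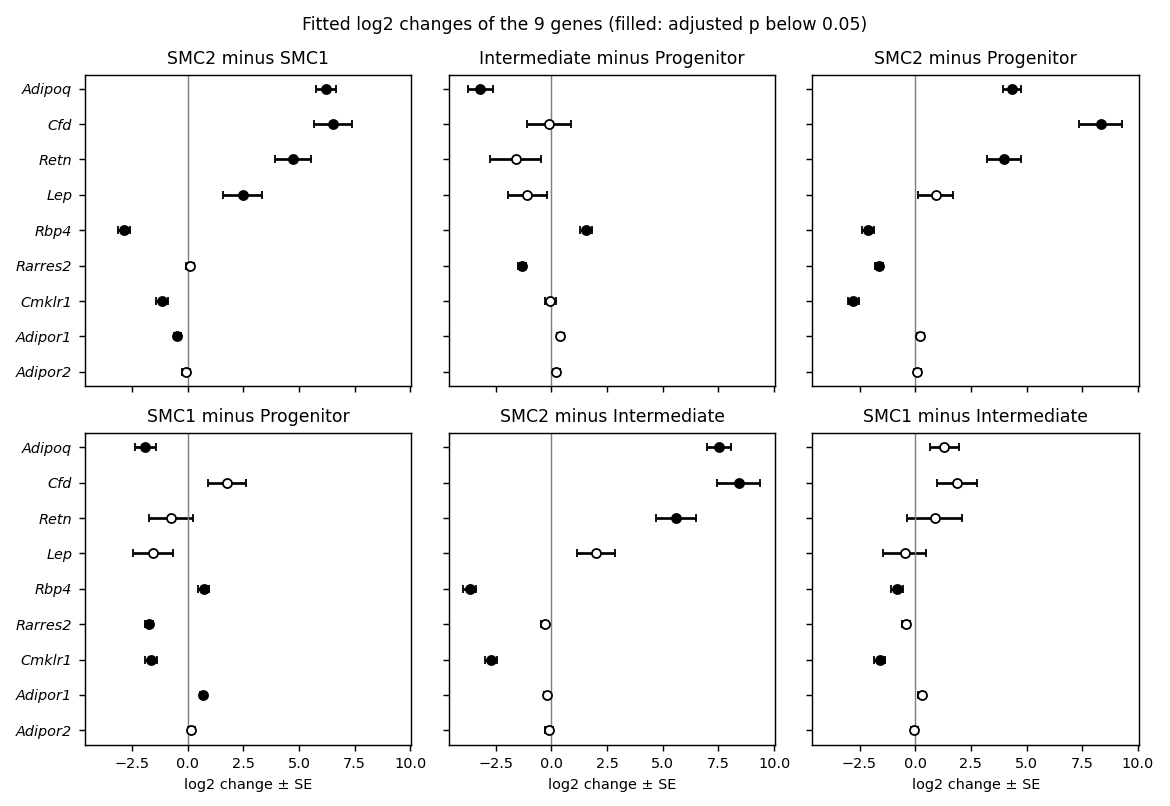
Fitted log2 change with its standard error (bars) of the 9 genes in the 6 comparisons, all on the same axis, with filled points for an adjusted p below 0.05. Adipoq, Cfd and Retn lie to the right and Rbp4 and Cmklr1 to the left in each comparison of SMC2, while Adipor2 has no filled point.

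Read by comparison, Intermediate differed from Progenitor in 3 of the 9 genes. Rbp4 was higher, and Adipoq and Rarres2 were lower. Over all genes tested 12.7% were called higher and 9.46% lower, and the medians were -0.09 over the 9 genes and 0.08 over all genes. With upper-quartile scaling 39.2% of the calls among all genes were higher in Intermediate, against 57.3% here. Against Progenitor, SMC2 had 3 of the 9 genes higher and 3 lower (5 of 8 called without Retn), with 23.1% of all genes called higher and 21.7% lower. SMC1 had 2 higher and 3 lower than Progenitor, with 25.3% and 23.1% of all genes. There 52.3% of the calls among all genes were higher, against 41.3% with upper-quartile scaling. Against Intermediate, SMC2 had 3 higher and 2 lower (4 of 8 called without Retn), with 21.4% and 23.2% of all genes. SMC1 differed from Intermediate in 2 of the 9 genes, both lower, with 19.7% of all genes called higher and 21.9% lower. That count was 4 without SMC1 replicate 2, where Adipoq (1.80, adjusted p = 0.0177) and Cfd (2.37, adjusted p = 0.0488) were also called. The comparisons share their libraries, so they are not independent.

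Levels can be compared between genes only per length, here as CPM per exonic kilobase. On that scale only the genes described here were ranked. Cfd led in SMC2 with 618, followed by Adipoq with 65.3, Rarres2 with 53.1, Rbp4 with 28.4 and Adipor1 with 26.6. In Intermediate and SMC1 Rbp4 led, with 360.2 and 204, before Rarres2 with 65.8 and 49.5. In Progenitor Rarres2 had 165 and Rbp4 122.6, an order that is uncertain because Rarres2 shares 33.6% of its exon bases with Lrrc61, and the receptors Adipor1, Adipor2 and Cmklr1 had 22.8, 3.74 and 3.46. Adipoq had 3.18 in Progenitor. Among the genes described here, Cfd RNA was thus the highest in SMC2 and Rbp4 RNA in Intermediate and SMC1. Adipor1 lay between 22.8 and 36.9 in all 4 populations.

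**Figure D4:**
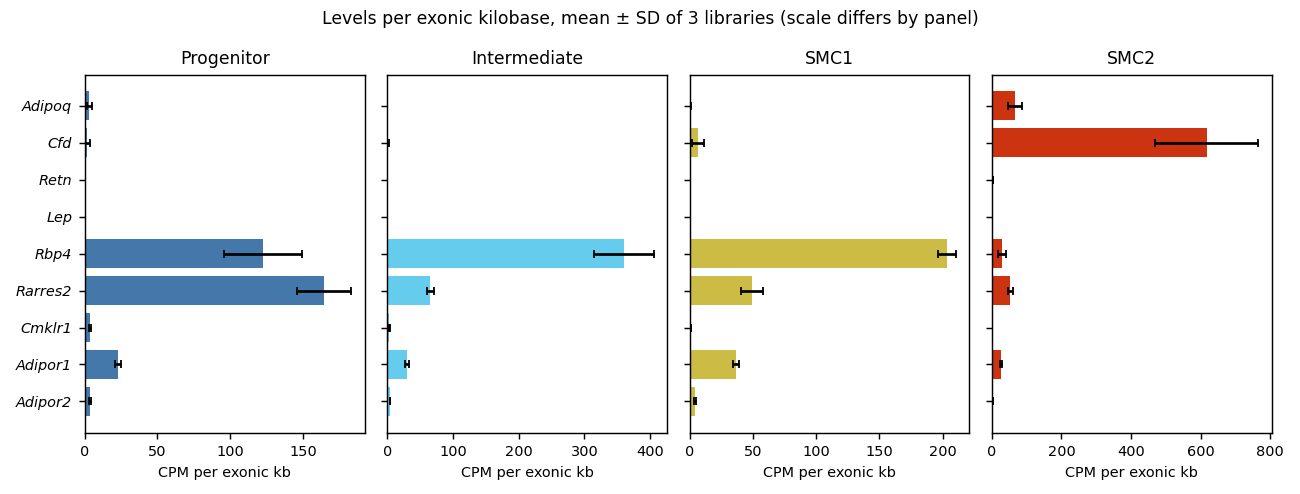
Mean level of each gene in CPM per exonic kilobase (bars from 0, with the SD of 3 libraries), with an axis of its own for each population. Rarres2 and Rbp4 have the longest bars in Progenitor, Rbp4 in Intermediate and SMC1, and Cfd in SMC2.

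For each gene whose group means spanned more than 2-fold, the 4 genes of the most similar pattern were taken by Pearson's r of log2 CPM over the 12 libraries, among 10142 genes. Since the points share 4 populations, r is a description. Adipoq was closest to Car3 (r = 0.979), an abundant carbonic anhydrase of fat cells, Pparg (0.972), Prkar2b (0.970) and Gng11 (0.966). Cfd was closest to the transcription factor Tcf15 (0.977), the olfactory receptor Olfr78 (0.977), Pck1 (0.976), which fat cells use to make glycerol phosphate, and the lipid droplet gene Cidec (0.971). Olfr78 had 547 CPM in SMC2 and at most 2.90 on average elsewhere. Retn was closest to Dsn1 (0.967), Gpat3 (0.966), an enzyme of triglyceride synthesis, Pth1r (0.962) and Prkar1b (0.962). As with Adipoq, Car3 was higher in Progenitor (49.0 CPM) than in SMC1 (5.62) and Intermediate (2.62), by group means. The 4 genes nearest to Cfd had at most 1.81 CPM in Progenitor.

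The other genes had neighbours of another kind. Rarres2 was closest to AW112010 (0.986), Dynlt1c (0.980), the chemokine Cxcl14 (0.979) and the neuropeptide Nmb (0.979). Cxcl14 had 172 CPM in Progenitor and at most 2.65 on average elsewhere. Cmklr1 was closest to Nav1 (0.994), Kcnn1 (0.990), the collagen processing enhancer Pcolce2 (0.990) and Sntb2 (0.988). Rbp4 was closest to the elastic fibre gene Fbln5 (0.986), the transcription factor Foxp2 (0.984), the stress gene Nupr1 (0.983) and the matrix protease Mmp16 (0.979). Fbln5 had 3159 CPM in Intermediate and 255 in SMC2. Lep, with its few counts, had no neighbour above 0.846 (Vps13c), followed by Ttn (0.801), Cyp2f2 (0.780) and Shpk (0.777). Among the 9 genes, r was 0.895 between Adipoq and Cfd, 0.938 between Adipoq and Retn, and -0.939 between Adipoq and Rbp4.

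Other adipokine genes did not share a direction between SMC2 and SMC1. Of 22 tested besides the 6 above, 7 were called higher than in SMC1, 7 lower and 8 were not called, where 16.5% of all tested genes were higher and 18.1% lower (median log2 change 0.48 against -0.00 over all genes). Angptl4, an inhibitor of lipoprotein lipase, rose by 3.59 ± 0.26 (210 ± 11.7 CPM in SMC2, 17.4 ± 7.67 in SMC1, adjusted p = 3.45e-09). Agt, the angiotensin precursor, rose by 3.94 ± 0.30 (adjusted p = 4.81e-09), and the stress hormone Gdf15 by 2.06 ± 0.18 (adjusted p = 1.64e-08). Fbn1, which encodes fibrillin 1 and the hormone asprosin, changed by -3.11 ± 0.27 (40.2 ± 9.39 CPM against 346 ± 58.3, adjusted p = 3.15e-08). The 7 genes higher than in SMC1 include Fgf21, chosen for mention after its values were seen, which had 17 counts in all of SMC2 and 0 in all of SMC1. Set against 3 counts over the SMC1 group, its rate was 5.62-fold higher, a figure that takes the 17 counts as exact. With Fgf21 at that value the median stayed 0.48.

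Against SMC1, more receptors and binding partners were called lower than higher in SMC2. Of 19 besides Adipor1, Adipor2 and Cmklr1, 8 were called lower in SMC2 than in SMC1, 1 higher and 10 were not called (median -0.63), beside 18.1% lower and 16.5% higher over all tested genes. The neuregulin receptor Erbb4 changed by -3.37 ± 0.31 (adjusted p = 4.95e-08), the leptin receptor Lepr by -2.13 ± 0.20 (8.69 ± 2.36 CPM against 38.0 ± 3.77, adjusted p = 5.13e-08), Paqr6, of the adiponectin receptor family, by -2.18 ± 0.24 (adjusted p = 4.66e-07), and the innate immune receptor Tlr4 by -2.16 ± 0.24 (adjusted p = 5.48e-07). Against Progenitor, 8 of the 19 were called higher in SMC2 and 4 lower, beside 23.1% and 21.7% of all tested genes. Against Intermediate 3 were higher and 5 lower, beside 21.4% and 23.2%. Lepr and Tlr4 were also called lower in SMC2 than in Progenitor, and Paqr6 was not called there. Erbb4 was called higher in SMC2 than in Progenitor (2.10 ± 0.38, adjusted p = 1.35e-04). The following were chosen after their values were seen. T-cadherin (Cdh13), which binds adiponectin multimers at the cell surface, had 101 ± 35.7 CPM in SMC2 and 497 ± 103 in SMC1 (-2.30 ± 0.28, adjusted p = 3.52e-06). The 10 endothelial markers summed to 432 to 577 CPM in SMC1 and 79.0 to 196 in SMC2. Of them 7 were called lower in SMC2, 0 higher and 3 were not called. The part of endothelial cells in the Cdh13 levels was not tested. Against Progenitor, Cdh13 was higher in SMC2 (0.95 ± 0.27, adjusted p = 0.00786), and against Intermediate it was not called (0.08 ± 0.27, adjusted p = 0.830), so it did not run opposite to Adipoq over the populations. The receptor called higher in SMC2 than in SMC1 was Ccrl2, which binds chemerin without signalling (1.39 ± 0.23, adjusted p = 6.37e-05). Gpr1, another chemerin receptor, and Stra6, the cell surface receptor of Rbp4, were near the limit of detection and not called against SMC1, with mean levels of 0.679 and 0.759 CPM in SMC2.

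**Figure D5:**
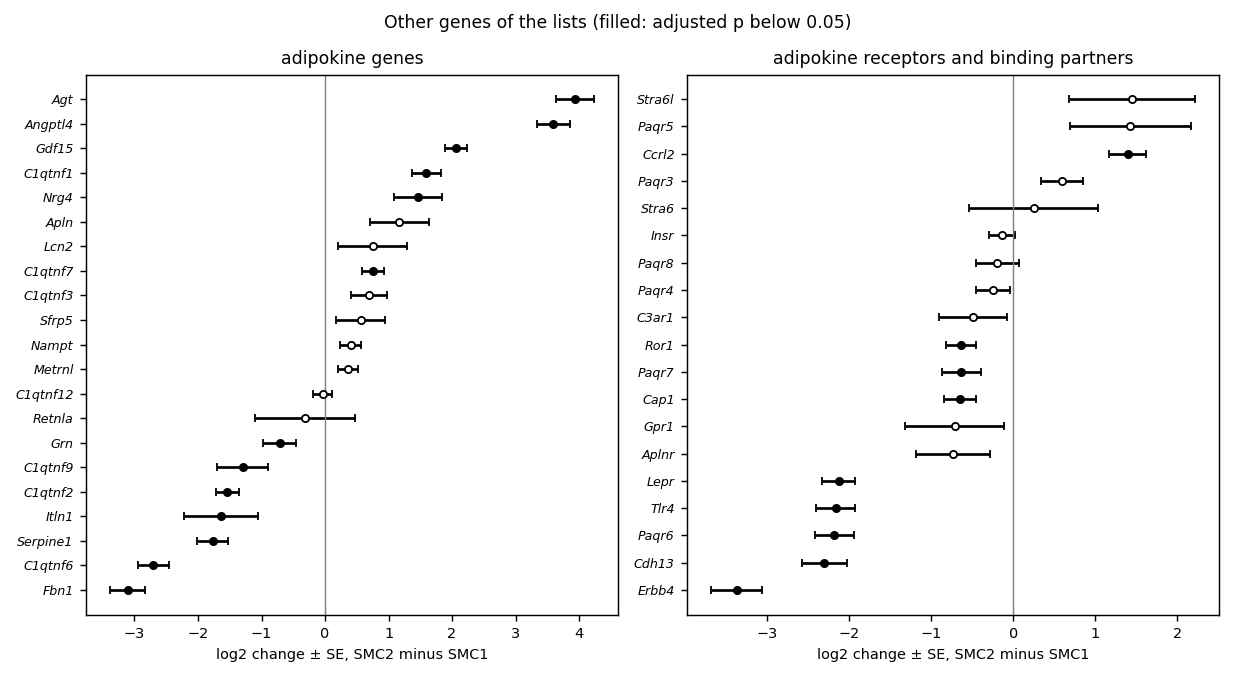
Log2 change with its standard error between SMC2 and SMC1 for the other tested adipokine genes (left) and receptors or binding partners (right), with filled points for an adjusted p below 0.05. Fgf21, at 0 counts in SMC1, is left out. The adipokine genes run from Fbn1 at -3.11 to Agt at 3.94, and 8 of the 9 filled receptor points lie to the left of 0.

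The shares of all tested genes called in this comparison, 16.5% higher and 18.1% lower, also stand beside the next lists, and most of their counts lie near them. For the assembly and signalling of adiponectin, 3 of 18 genes were called higher in SMC2 than in SMC1, 2 lower and 13 not (median -0.24), and these 5 calls became 3 without SMC1 replicate 1 or without the low-count filter. Acer2, a ceramidase, rose by 2.45 ± 0.28 (adjusted p = 2.42e-06). For the handling of retinol 4 of 19 were higher, 4 lower and 11 not called (median 0.25). The retinoid X receptor Rxrg rose by 3.71 ± 0.34 (adjusted p = 3.25e-08) and the retinal dehydrogenase Aldh1a1 by 2.15 ± 0.20 (adjusted p = 3.92e-08). For the leptin and chemerin pathways 5 of 19 were higher, 2 lower and 12 not called (median -0.07). Socs3, a brake on leptin receptor signalling, rose by 1.13 ± 0.19 (adjusted p = 1.03e-04).

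Between Intermediate and Progenitor, 5 of the 22 other adipokine genes were called higher in Intermediate, 6 lower and 11 not (median -0.36 against 0.08 over all genes). Over all tested genes 12.7% were higher and 9.46% lower, which is the background for each list in this comparison. The counts for the leptin and chemerin pathways lie near it, as do the counts called lower for the receptors and for adiponectin assembly. Agt changed by -4.63 ± 0.27 (3.78 ± 1.62 CPM against 94.3 ± 8.04, adjusted p = 1.14e-09), the same direction as Adipoq. Apln also fell (-3.06 ± 0.34, adjusted p = 2.49e-06). C1qtnf3 (1.53 ± 0.22, adjusted p = 3.82e-05) and C1qtnf2 (1.17 ± 0.17, adjusted p = 5.57e-05) went the other way. Of the 19 receptors 7 were higher, 3 lower and 9 not called (median 0.30). Without Progenitor replicate 1, or without Intermediate replicate 1, 6 of them were called. Paqr6 rose by 2.28 ± 0.24 (adjusted p = 1.09e-06) and Erbb4 by 2.24 ± 0.39 (adjusted p = 2.84e-04). Gpr1, named after its values were seen, changed by -2.64 ± 0.57 (0.858 ± 0.227 CPM against 5.37 ± 1.53, adjusted p = 0.00231), so this chemerin receptor fell with the ligand while Cmklr1 was not called. Of 19 retinol genes 4 were higher, 4 lower and 11 not called (median -0.13). Lrat, which esterifies retinol for storage, changed by -4.92 ± 0.55 (0.339 ± 0.376 CPM against 10.4 ± 2.64, adjusted p = 2.55e-06), and by -6.28 without Intermediate replicate 3. Of the 19 leptin and chemerin pathway genes 2 were higher, 3 lower and 14 not called (median 0.19). The protease Plau, an activator of plasminogen, changed by -3.73 ± 0.33 (adjusted p = 1.58e-07). For adiponectin assembly 5 of 18 were higher, 2 lower and 11 not called (median 0.18). These calls became 3 without Progenitor replicate 1, and 4 with upper-quartile scaling or on leaving out any of 6 other libraries: Intermediate replicate 1 or 2, SMC1 replicate 1 or 3, or SMC2 replicate 2 or 3. The 10 mesothelial markers differed too, with 9 called higher in Intermediate (201 to 454 CPM in sum against 54.8 to 82.4 in Progenitor), and their part in these differences was not tested.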

How the data were processed

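The authors deposited 3 tables over 33352 genes. Raw counts are whole numbers of reads per gene and library. Normalized counts, a signal deposited beside them, are the counts divided by a size factor of each library, found constant within each. The regularized log2 values that the authors deposited were not tested here. STAR 2.5.2a and DESeq2 1.26.0 are listed, with the build mm10, in the submitters' processing notes. The counting program is not given in the sources used here. Per the labels' protocols, poly(A) libraries came from SMART-Seq v4, a kit that does not mark strand.

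The raw counts entered edgeR 4.0.16 in R 4.3.3, with limma 3.58.1. Those genes that passed filterByExpr (19016, a level of about 0.563 CPM in 3 libraries) entered a model of group means over all 12 libraries (8 residual degrees of freedom, common biological coefficient of variation 0.206) with TMM scaling, the two-sided quasi-likelihood F test and Benjamini-Hochberg adjustment over all genes. CPM use TMM-scaled totals. DESeq2 1.42.0 served as an alternative, beside other scalings, no filter, a replicate block, the 6 libraries compared and each library left out. Exon lengths and coordinates come from GENCODE M21 (GRCm38). In simulated counts for SMC2 minus SMC1 over 18388 genes, 72% of 2-fold and 100% of 4-fold changes were recovered and 5.49% of calls were false. Changes were put only into genes above a set level in Progenitor, with the same relative spread for all genes. Adipoq, Cfd, Lep and Retn lay under that level (4.39, 1.66, 0.862 and 0.202 CPM in Progenitor). These rates therefore do not cover genes so scarce or more variable.

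The 9 genes and all lists were chosen with earlier results of these data known. Beside the 9 genes, the text names up to 4 called members of a list with the smallest adjusted p, the 4 genes of the most similar pattern that reach 10 CPM in a group, and genes said to be chosen after their values were seen. Single genes under this rule are left out and not reported here. Replicates of a group differed by more than sampling noise (chi-square per degree of freedom 9.31 to 53.8). Nothing in the labels says that libraries came from separate animals, so p-values measure only how libraries of a group vary, in part perhaps for technical reasons. The labels number the libraries of all 4 populations from 1 to 3 alike. Deviations of same-numbered Intermediate and Progenitor libraries correlated at 0.171, 0.191 and 0.170, so those numbers were taken to pair them. In each other comparison at least 1 correlation was under 0.1, though that of SMC2 and Intermediate replicate 3 was 0.346. The values given above for Intermediate against Progenitor come from the model without pairing, and the replicate block was an alternative. Reads are amplified fragments without molecular identifiers, so count intervals cover counting error only.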

Additional observations from a re-analysis of the deposited data

How the results depend on the processing

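Of the recomputed log2 changes of the 9 genes, 938 stayed on their side of the threshold, 15 lost a call, 14 gained one and 0 turned from one called sign to the other. Calls of Adipoq and Cfd in SMC2, of Rarres2 and Cmklr1, and of Rbp4 other than SMC1 against Progenitor held under each scaling, without the filter, with DESeq2, with the replicate block, in the 6 libraries compared and without each library. The number of called genes between SMC1 and Intermediate was 2, and 2 to 4 on leaving out single libraries, with 4 without SMC1 replicate 2. Between SMC2 and SMC1 it was 7, and 5 without SMC1 replicate 1, SMC2 replicate 2 or SMC2 replicate 3, and 6 without SMC1 replicate 2 or 3. With the replicate block it was 7 for SMC2 against SMC1 and 3 for the paired Intermediate against Progenitor, and no call among the 9 genes changed in the paired comparison. Gained calls were mostly of Lep, whose counts of 0 to 49 per library limit its precision. Without the low-count filter Adipoq was called higher in SMC1 than in Intermediate (1.35, adjusted p = 0.00226 in edgeR). Upper-quartile scaling moved the median change of all genes from -0.00 to 0.11 for SMC2 against SMC1, from 0.08 to -0.08 for Intermediate against Progenitor and from -0.00 to -0.19 for SMC1 against Progenitor. No called direction of the 9 genes turned with it. With plain totals as library size, mean Adipor1 in SMC2 was 152 CPM and in Intermediate 137. The cause of these changes was not tested.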
